A study of Mus musculus with 7 samples.

Results

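The NMDA receptor subunits were examined in cultured BB-p53n OPCs, in 1 single-nucleus RNA sequencing library. The set is the 7 genes *Grin1*, *Grin2a*, *Grin2b*, *Grin2c*, *Grin2d*, *Grin3a* and *Grin3b*, matched by symbol among the 33696 genes of the count matrix. The set was chosen by measured values of this same library, in which *Grin2a* stood high in nuclei without *Pdgfra* transcripts, so the levels of *Grin2a* by *Pdgfra* are a description. The question asked was whether *Grin1*, the subunit that every NMDA receptor needs, accompanied *Grin2a* in those nuclei.

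BB-p53n OPCs are primary oligodendrocyte progenitor cells taken from *Trp53* fl/fl C57BL/6 mouse pups of either sex at postnatal day 5 to 7. They were isolated with an antibody against CD140a, the PDGFRα protein that *Pdgfra* encodes, and then infected with a retrovirus, PDGFB-IRES-CRE, which deletes *Trp53* and overexpresses PDGFB. The nuclei were isolated without the filtering and debris removal that were used for tissue. The 6 brain samples with tumors that the study also lists, 3 from an early and 3 from a late stage, were not analysed here, and neither were OPCs without the deletion or the retrovirus. With 1 library there was no replicate, so no test between groups of nuclei was run, and every interval covers counting error only.

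An NMDA receptor is a channel of 4 subunits, which in its usual form, with GluN1 and GluN2 subunits, opens to glutamate together with glycine or D-serine. *Grin1* encodes GluN1, which binds glycine and is present in every receptor, because the other subunits are held in the endoplasmic reticulum without it. *Grin2a* to *Grin2d* encode the GluN2 subunits, which bind glutamate and set the speed and conductance of the channel, and *Grin3a* and *Grin3b* encode the GluN3 subunits, which bind glycine. OPCs receive glutamatergic synapses from neurons and are known to express NMDA receptors.

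Of the 10047 deposited barcodes, 8917 had 2000 to 8000 detected genes and were kept, with 141138093 UMIs in all and a median of 13771 UMIs per nucleus. A UMI marks 1 captured transcript molecule. *Pdgfra* had 0 UMIs in 2341 nuclei, or 26.3%, and at least 1 UMI in 6576. The nuclei with 0 *Pdgfra* UMIs were shallower, with a median of 10621 against 15331.5 UMIs, while their mitochondrial share was 6.33% against 6.34%. Shares of nuclei were therefore taken after each nucleus was thinned at random to 5000 UMIs, which left out 75 and 82 shallower nuclei of the 2 groups.

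As markers of the labelled cell type, *Olig1* stood at 530 CPM (UMIs of the gene per 1000000 UMIs) in the nuclei without *Pdgfra* UMIs and 639 CPM in those with them, and *Olig2* at 231 and 308 CPM. *Sox10*, another transcription factor of the oligodendrocyte lineage, stood at 20.1 and 103 CPM. The nuclei without *Pdgfra* UMIs thus held *Olig1* and *Olig2* at somewhat lower levels than the rest, and *Sox10* at a far lower level. Of the 8 OPC markers looked at, 5 had a ratio of 0.5 or less, against 6.31% of all genes. These 5 count *Pdgfra*, which set the groups, and the median of the 8 was 0.321.

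For the obligate subunit the RefSeq promoter table holds an entry. It is shown because the comparison turns on *Grin1*, which lies on chromosome 2 of GRCm39, and it is the 250 bases before the RefSeq start, on the minus strand at chr2:25209200-25209449 by exact match of the RefSeq sequence (table build GRCm38.p6). Its last 27 bases lie inside the GENCODE gene, whose annotated start is further upstream. Capitals mark the E-box CACGTG, a palindrome that reads alike on both strands.

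Grin1: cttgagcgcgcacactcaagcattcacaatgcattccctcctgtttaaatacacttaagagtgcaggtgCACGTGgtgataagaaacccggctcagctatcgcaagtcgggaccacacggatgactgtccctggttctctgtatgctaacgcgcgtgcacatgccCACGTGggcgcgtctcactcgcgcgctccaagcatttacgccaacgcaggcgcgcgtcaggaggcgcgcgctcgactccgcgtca

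The window holds 27 CpG dinucleotides, and 91.8% of the 27025 promoters in the table hold fewer, with a median of 6. The E-box occurs 2 times here and at least once in 6.05% of the promoters. Neither GGGCGG nor TATAAA was found in these letters on either strand, while 32.9% and 13% of the promoters hold them. The promoter table matched 4 of the 7 subunits, and *Grin2a*, *Grin2b* and *Grin3a* were not among them.

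Over all kept nuclei, *Grin3a* was the most abundant subunit transcript per length. The level per 10 kb of gene span was 5.59 CPM for *Grin3a*, 1.14 for *Grin1*, 0.621 for *Grin2a*, 0.350 for *Grin3b*, 0.238 for *Grin2b*, 0.226 for *Grin2d* and 0.0650 for *Grin2c*. Nuclear transcripts are primed within introns as well as at the 3′ end, and division by span is only a rough correction for that.

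*Grin3a*, which lies on chromosome 4 over 184 kb, was counted 14533 times, or 103 CPM (95% exact Poisson interval 101 to 105), and was detected in 61.3% of the nuclei at full depth. *Grin2a*, on chromosome 16 over 428 kb, was counted 3746 times, or 26.5 CPM (25.7 to 27.4), in 13.6% of the nuclei, with up to 25 UMIs in 1 nucleus. *Grin2b*, on chromosome 6 over 460 kb, was counted 1543 times, or 10.9 CPM (10.4 to 11.5). These 3 genes gave nearly all of the subunit UMIs.

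*Grin1*, on chromosome 2 over 28.0 kb, was counted 453 times, or 3.21 CPM (2.92 to 3.52), in 353 nuclei, which is 3.96% of the total. The antisense gene *Grin1os*, which overlaps it, was counted 2 times, and the 10x counts keep the strand. *Grin2d* had 148 UMIs, or 1.05 CPM, *Grin3b* 32 UMIs and *Grin2c* 17 UMIs. Only 5 of the 7 subunits thus had the 100 UMIs that were asked of a gene before ratios were counted across genes, and *Grin2c* and *Grin3b* did not.

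In nuclei without *Pdgfra* UMIs, *Grin2a* and *Grin2b* stood far above their level in nuclei with them, whereas *Grin1* did not. *Grin2a* was at 108 CPM (2875 UMIs) against 7.61 CPM (871 UMIs), a ratio of 14.1 (13.1 to 15.3). *Grin2b* was at 39.8 CPM against 4.19 CPM, a ratio of 9.49 (8.51 to 10.6). *Grin1* was at 2.88 CPM (77 UMIs; 2.28 to 3.60) against 3.29 CPM (376 UMIs; 2.96 to 3.64), a ratio of 0.878 with an interval from 0.678 to 1.12 that holds 1.

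The other subunits were near the same level in both groups or were too sparse to compare. *Grin3a* was at 93.3 CPM against 105 CPM, a ratio of 0.887 (0.849 to 0.926). *Grin2d* was at 1.16 against 1.02 CPM, a ratio of 1.14 (0.738 to 1.70). *Grin3b* was at 0.374 CPM from 10 UMIs against 0.192 CPM from 22, a ratio of 1.95 (0.823 to 4.29). *Grin2c* had no UMI in the nuclei without *Pdgfra*, where 3 UMIs would be 0.112 CPM, and 0.149 CPM in the others.

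**Figure D1:**
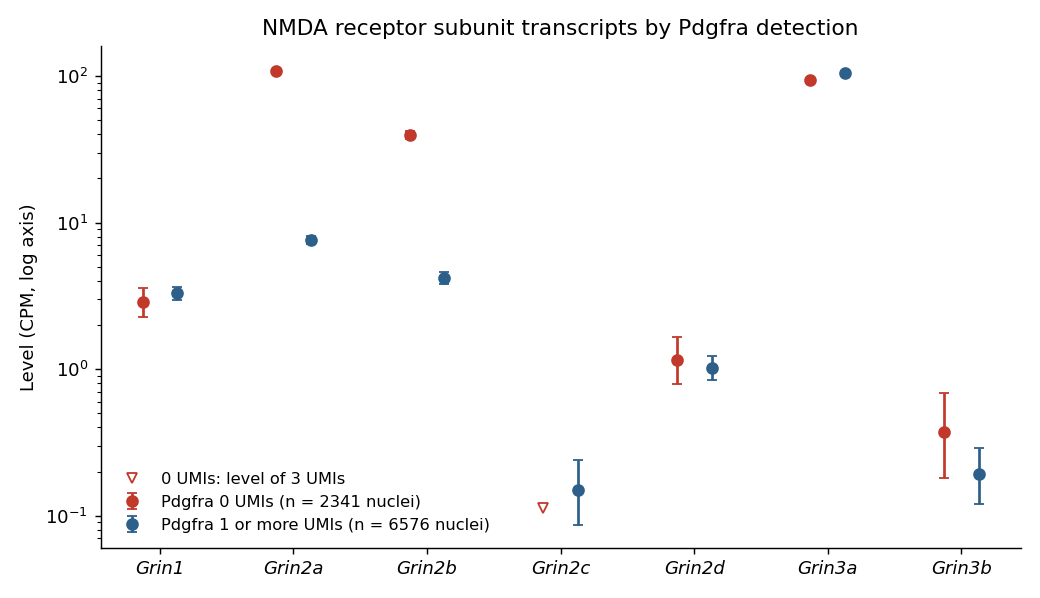
Level of each subunit in CPM, on a log axis, in nuclei with 0 *Pdgfra* UMIs (red) and with 1 or more (blue). Points are summed UMIs of each group with 95% exact Poisson intervals, and the open triangle stands for 0 *Grin2c* UMIs, drawn at the level of 3 UMIs. *Grin2a* and *Grin2b* separate between the groups by 14.1 and 9.49 times, while the *Grin1* intervals overlap.

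The median ratio over the 14531 genes with at least 100 UMIs was 1.10, 7.93% of them stood at 2 times or more and 6.31% at 0.5 times or less. Of the 5 subunits that entered, 2 stood at 2 times or more and 0 at 0.5 times or less. These ratios come from the contrast that chose the set. Only 8 genes had a higher ratio than *Grin2a* and 53 a higher ratio than *Grin2b*, and *Egfr*, which encodes the EGF receptor, stood at 200 CPM against 28.0 CPM, a ratio of 7.15.

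The shares of nuclei at 5000 UMIs gave the same picture. *Grin2a* was detected in 27.5% of the nuclei without *Pdgfra* UMIs (95% Clopper-Pearson interval 25.7 to 29.4) and in 2.36% of those with them (2.00 to 2.75). *Grin2b* was detected in 13.6% (12.2 to 15.1) and 1.65% (1.35 to 1.99). For *Grin1* the shares were 1.72% (1.23 to 2.35) and 1.57% (1.28 to 1.90), from 39 of 2266 and 102 of 6494 nuclei. *Grin3a* was detected in 32.5% and 36.7%.

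When nuclei were instead ordered by their *Pdgfra* count at 5000 UMIs, *Grin2a* stood at 67.3 CPM at 0 *Pdgfra* UMIs, 6.42 CPM at 1, 2.16 CPM at 2 to 3 and 2.99 CPM (1.37 to 5.68) at 4 to 6. *Grin2b* was at 25.2, 5.78, 1.88 and 0.664 CPM. *Grin1* stood at 3.39, 3.89, 3.85 and 3.65 CPM in the same order, a range smaller than the interval of the first of them (2.61 to 4.33). *Grin3a* stood at 111, 117, 107 and 93.4 CPM.

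Per *Grin1* UMI, 37.3 *Grin2a* UMIs were counted in the nuclei without *Pdgfra* and 2.32 in those with it. For *Grin2b* the numbers were 13.8 and 1.28, and for *Grin3a* they were 32.4 and 32.0. These counts compare each gene with itself between the groups, since genes of unequal length are not captured alike.

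Within the nuclei without *Pdgfra* UMIs, the share with *Grin1* did not differ beyond counting error between nuclei with and without *Grin2a*. At 5000 UMIs, *Grin1* was detected in 12 of 623 nuclei with *Grin2a*, or 1.93% (0.999 to 3.34), and in 27 of 1643 nuclei without *Grin2a*, or 1.64% (1.09 to 2.38). The *Grin1* level was 3.85 CPM (1.99 to 6.73) from 12 UMIs against 3.53 CPM (2.36 to 5.07) from 29 UMIs, a ratio of 1.09 (0.507 to 2.21). Other random draws of the same 5000 UMIs gave ratios from 0.626 to 0.911. With all UMIs counted, *Grin1* was at 2.54 CPM in the 905 nuclei with *Grin2a* and 3.14 CPM in the 1436 without, a ratio of 0.807 (0.490 to 1.31).

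These intervals leave room for ratios from 0.490 to 2.21, so a large difference in either direction is possible. The ratio of *Grin2b* in the same nuclei lies at or beyond their upper ends, but it is pooled over clusters of nuclei. Within the cluster with the highest *Grin2a*, given further on, the ratios were 1.48 for *Grin2b* and 1.53 (0.570 to 4.08) for *Grin1*. The 2 genes were thus not set apart there. *Grin1* was detected in under 3% of these nuclei, and how many nuclei hold its transcripts without a UMI was not tested, so a nucleus without a *Grin1* UMI is not shown to lack *Grin1*. In all, 23 of the 905 nuclei with *Grin2a* also held *Grin1*, or 2.54%, against 2.79% of the 1436 without *Grin2a*. Of the 1146 nuclei without *Pdgfra* UMIs that held any Grin2 transcript, 33 held *Grin1*, or 2.88%. Among all 2341 nuclei without *Pdgfra* UMIs the *Grin1* share was 2.69%.

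As a gauge of UMIs that a nucleus should lack, at least 1 UMI of 4 Y-linked genes was found in 4.67% (3.78 to 5.70) of nuclei with *Xist*, the transcript of the inactive X chromosome, at 5000 UMIs, or in 12% at their median depth of 12567.5 UMIs. The *Grin1* shares lie under that gauge, but the gauge sums 4 genes of a far higher level. *Uty*, *Ddx3y*, *Eif2s3y* and *Kdm5d* stood at 27.1, 18.6, 17.4 and 9.69 CPM over all kept nuclei, against 3.21 CPM for *Grin1*. The gauge therefore cannot be set beside the *Grin1* shares directly, and the part of background in them was not tested. *Grin1* itself differed between clusters of nuclei by more than its counting error, as given further on.

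*Grin2b* was more often found with *Grin2a*. In the nuclei without *Pdgfra* UMIs, it was detected in 22.0% of those with *Grin2a* and 10.4% of those without, and its level ratio was 2.21 (1.82 to 2.68). Across *Grin2a* counts of 0, 1, 2 to 3 and 4 or more, the *Grin2b* share was 10.4%, 21.5%, 22.8% and 21.4%, so it was higher from the first *Grin2a* UMI and no higher beyond it. The *Grin1* share was 1.64%, 1.53%, 2.07% and 3.57%, the last of these from 2 of 56 nuclei (0.435 to 12.3).

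*Grin3a* went the other way. It was detected in 23.0% of the nuclei with *Grin2a* and 36.1% of those without, with a level ratio of 0.536 (0.457 to 0.625). Over the 9811 genes with at least 100 UMIs in this comparison the median ratio was 1.03, with 0.408% of genes at 2 times or more and 3.98% at 0.5 times or less. Beside *Grin2a* itself, *Grin2b* was the 1 subunit at 2 times or more, and *Grin1* had too few UMIs to enter.

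**Figure D2:**
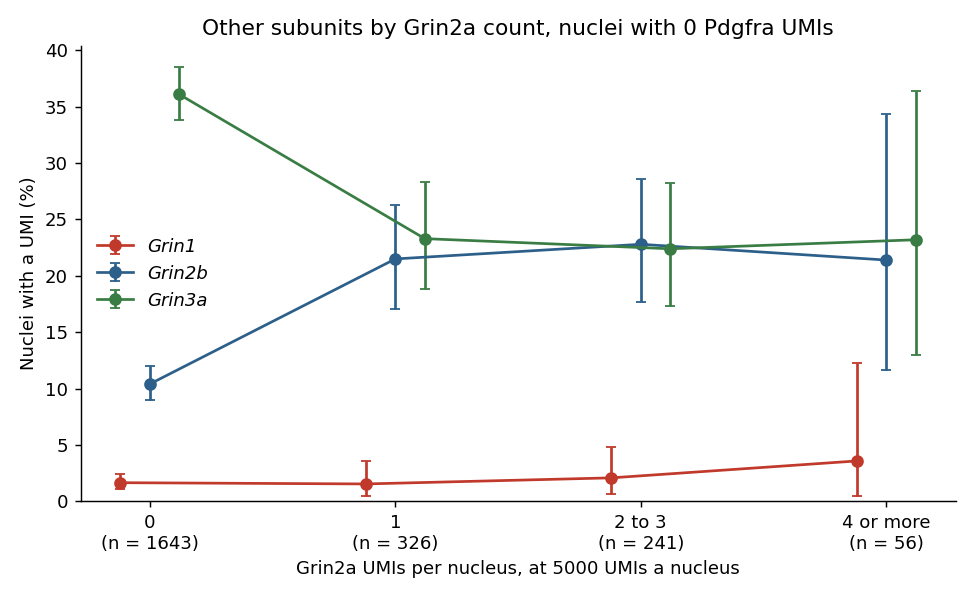
Share of nuclei with a UMI of *Grin1* (red), *Grin2b* (blue) or *Grin3a* (green), in percent, against the *Grin2a* UMIs of the nucleus, among nuclei with 0 *Pdgfra* UMIs thinned to 5000 UMIs. Bars are 95% Clopper-Pearson intervals and n is the number of nuclei. The *Grin2b* share is 10.4% without *Grin2a* and 21.4% to 22.8% with it, the *Grin3a* share falls from 36.1%, and the *Grin1* intervals overlap throughout.

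At full depth, 51.7% of the nuclei without *Pdgfra* UMIs held neither *Grin2a* nor *Grin2b*, 24.8% held *Grin2a* alone, 9.61% held *Grin2b* alone and 13.8% held both. *Grin1* was found in 2.56%, 2.41%, 4.0% and 2.78% of these 4 sets. Among the nuclei with *Pdgfra* UMIs, 92.5% held neither, 3.21% held *Grin2a* alone, 2.81% held *Grin2b* alone and 1.43% held both. *Grin1* was found in 4.30%, 2.84%, 8.11% and 7.45% of these, in the same order. Their depths were unequal, with medians of 15006, 23961, 21625 and 26327.5 UMIs.

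In the nuclei with *Pdgfra* UMIs, the *Grin1* level was higher with *Grin3a*, while the intervals of its shares overlapped. At 5000 UMIs the *Grin1* share was 1.84% (1.34 to 2.47) with *Grin3a* and 1.41% (1.07 to 1.82) without, and its level ratio was 1.66 (1.14 to 2.43). This pair was not compared within clusters. In the nuclei without *Pdgfra* UMIs the shares were 2.45% and 1.37%, with a ratio of 1.80 (0.919 to 3.48), whose interval holds 1. In nuclei with *Pdgfra* UMIs, *Grin1* was found in 1 of 153 nuclei with *Grin2a*, or 0.654% (0.0165 to 3.59), against 1.59% without. It was found in 0 of 107 with *Grin2b*, whose interval reaches 3.39%, against 1.60% without. Both intervals hold the share without, so no difference is shown at this depth.

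The 8917 kept nuclei fell into 8 clusters with the normalization and clustering steps of the study's methods, and the clusters are called by number here. A further limit of 5% on mitochondrial UMIs, which the methods do not state, left 1954 nuclei and 5 clusters. These are the numbers of nuclei and clusters that the study gives after its filtering, so its clusters rest on a smaller set than those used here. Cluster 1 held 1557 of the 2341 nuclei without *Pdgfra* UMIs, or 66.5%, and these were 89.8% of its 1733 nuclei. Cluster 3 held another 480, or 20.5%. The subunits are among the genes that were clustered, so their levels by cluster are a description.

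Cluster 1 held 86.0% of the *Grin2a* UMIs and cluster 5 held 11.5%. *Grin2a* was at 145 CPM in cluster 1, which is 33.0 times (30.0 to 36.2) its level in all other nuclei. With the 7 subunits, *Pdgfra* and *Egfr* left out of the clustering, the highest cluster still stood at 31.8 times. Cluster 5 followed at 18.9 CPM and cluster 3 at 3.73 CPM, and the other clusters had 0.715 CPM or less. *Grin2b* ran in a similar order, at 49.8 CPM in cluster 1, 11.6 in cluster 3 and 9.04 in cluster 5, where the intervals of clusters 3 (10.0 to 13.4) and 5 (7.85 to 10.4) overlap.

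*Grin1* had another order. It was highest in cluster 0, at 5.37 CPM (4.52 to 6.35), and cluster 3, at 5.12 CPM (4.09 to 6.33), which do not differ beyond counting error. Cluster 6 had 3.53 CPM, cluster 5 had 2.63, cluster 1 had 2.26 (1.68 to 2.98) and cluster 2 had 2.17, with overlapping intervals between neighbours. Cluster 7 had 1.85 CPM from 4 UMIs and cluster 4 had 1.53 (1.03 to 2.19). Cluster 1, with the highest *Grin2a*, thus had a *Grin1* level below those of clusters 0 and 3.

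*Grin3a* was highest in cluster 3 as well, at 219 CPM, followed by cluster 0 at 140, cluster 5 at 101, cluster 6 at 80.9, cluster 2 at 78.2, cluster 1 at 61.6, cluster 4 at 51.7 and cluster 7 at 40.2. The intervals of clusters 6 and 2 overlap. Cluster 3 and cluster 0 led for both *Grin1* and *Grin3a*.

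**Figure D3:**
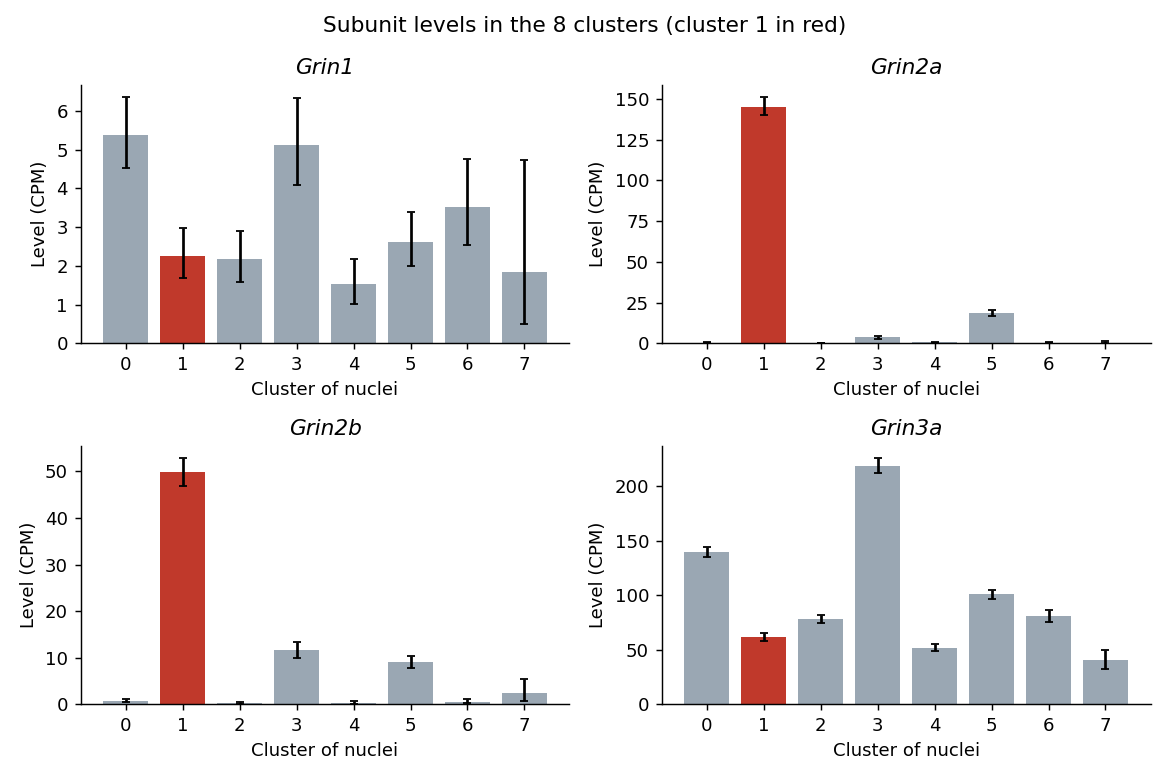
Levels of *Grin1*, *Grin2a*, *Grin2b* and *Grin3a* in CPM in the 8 clusters, each panel on its own axis from 0, with 95% exact Poisson intervals. Cluster 1 (red) has the highest *Grin2a* (145 CPM) and *Grin2b* (49.8 CPM), while clusters 0 and 3 have the highest *Grin1* and *Grin3a*.

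The nuclei without *Pdgfra* UMIs in these clusters differed in all 4 genes. Of those in cluster 1, *Grin2a* was at 148 CPM, *Grin2b* at 51.2, *Grin3a* at 60.6 and *Grin1* at 2.28 CPM (43 UMIs). Of those in cluster 3, *Grin2a* was at 7.84 CPM, *Grin2b* at 16.3, *Grin3a* at 220 and *Grin1* at 5.45 CPM (25 UMIs). Cluster 1 over cluster 3 gave ratios of 18.9 (13.6 to 27.1) for *Grin2a*, 3.13 (2.48 to 4.02) for *Grin2b*, 0.276 (0.253 to 0.300) for *Grin3a* and 0.419 (0.25 to 0.716) for *Grin1*. These nuclei of both clusters also differed in *Xist*, at 991 CPM in cluster 1 and 6.54 CPM in cluster 3, a ratio of 152 (106 to 225), with *Xist* UMIs in 96.1% and 1.25% of them. The part of donor sex in the subunit ratios was not tested.

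Within cluster 1, the 176 nuclei with *Pdgfra* UMIs had nearly as much *Grin2a*, at 128 CPM (116 to 141) against 148 (143 to 154), and *Grin2b* was at 42.1 against 51.2 CPM. When cluster 1 was left out, the ratio between nuclei without and with *Pdgfra* UMIs was 2.40 (1.85 to 3.06) for *Grin2a* and 4.07 (3.22 to 5.11) for *Grin2b*. It was 1.30 (0.890 to 1.86) for *Grin1* and 1.62 (1.53 to 1.71) for *Grin3a*, so that *Grin3a* turned from lower to higher.

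The pairing of subunits within single nuclei also changed once clusters were taken apart. Among the nuclei of cluster 1 without *Pdgfra* UMIs, the ratio between those with and without *Grin2a* was 1.48 (1.21 to 1.81) for *Grin2b* and 0.909 (0.753 to 1.10) for *Grin3a*. For *Grin1* it was 1.53 (0.570 to 4.08), from 10 UMIs in 605 nuclei and 10 UMIs in 923. The difference in *Grin3a* was thus not detectable within cluster 1, and that in *Grin2b* was smaller.

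*Grin2a* and *Pdgfra* UMIs occurred together in 305 nuclei, 163 of them in cluster 5 and 107 in cluster 1. These nuclei had a median of 24579 UMIs, against 11725 for the 905 nuclei with *Grin2a* alone, and cluster 5 had the highest median of the 8 clusters, at 30276 UMIs. Scrublet, a doublet caller, marked 0 of 8917 nuclei, and its calls were not used. Without the 8% of nuclei with the highest scores, the *Grin2a* ratio between nuclei without and with *Pdgfra* UMIs was 28.6. The part of doublets in these nuclei was not tested.

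*Egfr* was higher with *Grin2a* over all nuclei without *Pdgfra* UMIs but not detectably so within cluster 1. Among the nuclei without *Pdgfra* UMIs, at 5000 UMIs, *Grin2a* was at 132 CPM in those with *Egfr* and 71.1 CPM in those without, a ratio of 1.85 (1.64 to 2.10), and *Grin2b* had a ratio of 2.05. Within cluster 1, *Egfr* was at 250 CPM in the nuclei with *Grin2a* and 234 CPM in those without, a ratio of 1.07 (0.971 to 1.17). For *Grin1* the ratio by *Egfr* over all of them was 0.681 (0.344 to 1.32). Between nuclei with *Mki67* or *Top2a* UMIs, which mark dividing cells, and those with neither, *Grin2a* had a ratio of 1.11 (0.930 to 1.33).

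*Xist* stood at 710 CPM in the nuclei without *Pdgfra* UMIs and 59.0 CPM in those with them, a ratio of 12. Among the former, those with *Xist* had 148 CPM of *Grin2a* and those without had 17.7 CPM, a ratio of 8.35 (6.56 to 10.8). *Grin1* was at 2.59 CPM with *Xist* and 5.49 CPM without, a ratio of 0.472 (0.242 to 0.914). Pups of either sex were used, and the part of donor sex in these levels was not tested.

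Neuronal transcripts in all were no higher where *Grin2a* was found. At 5000 UMIs, the 10 neuron markers summed to 30.8 CPM in the nuclei without *Pdgfra* and with *Grin2a* UMIs, 39.8 CPM in those with neither, and 33.1 CPM in those with *Pdgfra*. In the nuclei with *Grin2a* UMIs, *Slc17a7* and *Slc17a6*, which encode the vesicular glutamate transporters, *Gad2*, *Slc32a1* and *Stmn2* had 0 UMIs. These 5 genes had only 14, 1, 13, 5 and 4 UMIs in all kept nuclei, so a count of 0 in this smaller group says little. *Rbfox3*, which encodes the neuronal splicing factor NeuN, was the highest of the list, at 18.9 CPM with *Grin2a* and 12.9 CPM in those with neither. Between all nuclei without and with *Pdgfra* UMIs, *Rbfox3* was at 13.8 against 1.77 CPM, a ratio of 7.81 (6.56 to 9.32), and *Gad1*, which encodes a GABA synthesis enzyme, at 3.63 against 2.01 CPM, a ratio of 1.81 (1.41 to 2.30). *Slc17a7* had a ratio of 4.29 (1.28 to 14.3) from 14 UMIs in all, *Snap25*, a synaptic vesicle fusion gene, 1.01, *Nefl* 0.655 and *Nefm* 0.382. The part of other cell types in the subunit levels was not tested.

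The OPC markers summed to 1680 CPM in the nuclei with *Grin2a* and no *Pdgfra* UMIs, 3151 CPM in those with neither, and 5829 CPM in those with *Pdgfra*, with *Pdgfra*, which set the groups, the 1 marker at 0. The astrocyte markers summed to 482, 595 and 533 CPM, the oligodendrocyte markers to 27.3, 52.2 and 191, the microglia markers to 8.03, 7.43 and 8.07 and the endothelial markers to 9.31, 11.3 and 9.52. In the nuclei with *Grin2a* and no *Pdgfra* UMIs, *Aqp4* of the astrocytes, *Mbp* and *Mag* of the oligodendrocytes, *Tmem119*, *Aif1* and *C1qa* of the microglia and *Cldn5* and *Cdh5* of the endothelium had 0 UMIs at 5000 UMIs a nucleus. Apart from *Mbp*, with 359, each of these had 8 UMIs or fewer in all kept nuclei, so their counts of 0 say little. Between all nuclei without and with *Pdgfra* UMIs, the members with at least 100 UMIs had median ratios of 0.612 for astrocytes, 0.184 for oligodendrocytes, 1.15 for microglia and 2.01 for endothelium. Among the endothelial markers, *Flt1* was at 3.63 against 1.81 CPM, *Kdr* at 2.58 against 1.26 CPM and *Pecam1* at 4.04 against 5.79 CPM, while *Cdh5* had a ratio of 10.7 (1.75 to 113) from 7 UMIs in all. Of the astrocyte markers, *Aldh1l1* had a ratio of 4.61 (2.61 to 8.19) from 54 UMIs, *Slc1a3* 1.38, *Aldoc* 1.17, *Slc1a2* 0.487 and *S100b* 0.230.

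Of 23 genes for scaffold, auxiliary and trafficking partners of the receptor, 21 had at least 100 UMIs, and their median ratio between nuclei without and with *Pdgfra* UMIs was 1.05, against 1.10 over all genes. There, 2 stood at 2 times or more and 2 at 0.5 times or less, shares near the 7.93% and 6.31% of all genes, so the counts set the list apart in neither direction. *Actn2*, whose product α-actinin-2 ties the receptor to the actin cytoskeleton, was at 3.07 against 0.655 CPM, a ratio of 4.69 (3.38 to 6.50), and *Homer3*, a postsynaptic scaffold, was at a ratio of 2.01 (1.81 to 2.22). *Neto1*, an auxiliary subunit of kainate receptors that also binds NMDA receptors, was at 185 against 716 CPM, a ratio of 0.258, and *Dlgap1*, which links PSD-95 to Shank proteins, was at 105 against 281 CPM, a ratio of 0.375. *Dlg4*, which encodes PSD-95 itself, was at a ratio of 0.907 (0.849 to 0.969).

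Of 15 genes that signal at the receptor, 12 had at least 100 UMIs, with a median ratio of 1.01. *Camk2b*, a subunit of the calcium and calmodulin dependent kinase that binds the tail of GluN2B, was the 1 gene at 2 times or more, at 24.3 against 3.98 CPM, a ratio of 6.11 (5.41 to 6.90), and none stood at 0.5 times or less. This is 1 of 12 genes, near the 7.93% of all genes at 2 times or more. Its relative *Camk2a* was just under the limit at 1.98 (1.61 to 2.43).

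Of 12 genes for the supply of glycine and serine, which serve the co-agonists glycine and D-serine, 9 had at least 100 UMIs and their median ratio was 1.06. None stood at 2 times or more or at 0.5 times or less, which for 9 genes is close to what the 7.93% and 6.31% of all genes would give. The members with the highest levels, *Psat1* and *Psph*, which encode enzymes of serine synthesis, were at 219 against 260 CPM and 262 against 201 CPM. *Srr*, which encodes the serine racemase that makes D-serine, was at a ratio of 1.06 (0.978 to 1.15).

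*Grin2a* lies in a stretch of chromosome 16 where 29 other genes with at least 100 UMIs start within 2 Mb. Their ratios between nuclei without and with *Pdgfra* UMIs ran from 0.518 to 5.17 with a median of 1.13, and 2 stood at 2 times or more, a share near the 7.93% of all genes. *Atf7ip2*, which starts 0.197 Mb away, was at 3.25 (2.15 to 4.89) from 102 UMIs. *Shisa9*, which encodes an auxiliary subunit of AMPA receptors and starts 1.989 Mb away, was at 8.35 against 1.62 CPM, a ratio of 5.17 (4.23 to 6.31). The share of all UMIs on chromosome 16 had a ratio of 1.02, while the median ratio of 447 of its genes was 1.26, against 1.10 over all genes.

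**Figure D4:**
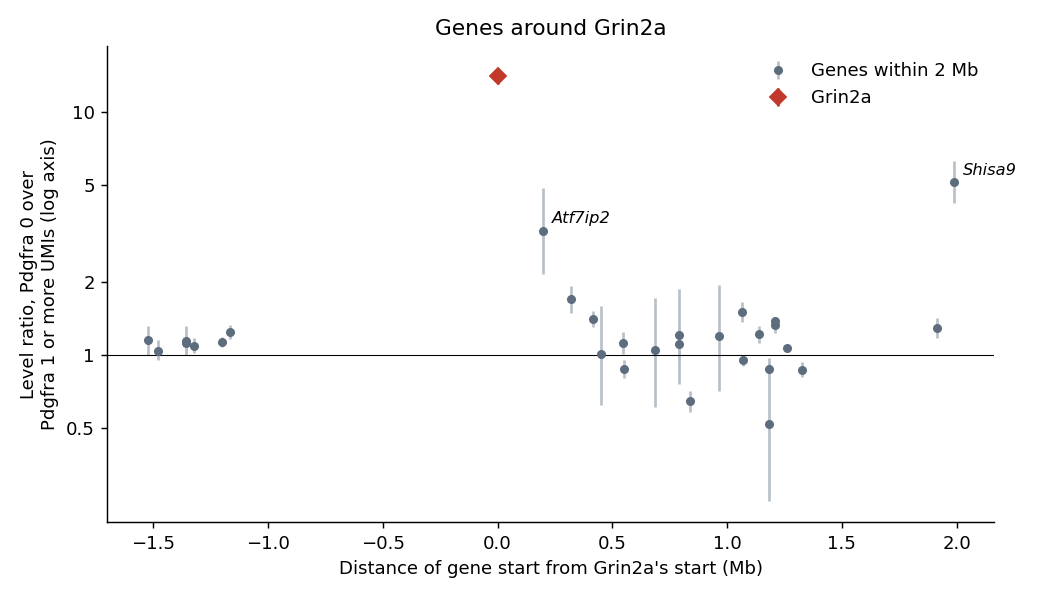
Ratio of the level in nuclei with 0 *Pdgfra* UMIs over nuclei with 1 or more, on a log axis, for *Grin2a* (red) and 29 genes that start within 2 Mb of it (grey), against the distance between starts in Mb. Bars are 95% exact intervals of the ratio. Most neighbours lie near 1, with *Shisa9* at 5.17 and *Atf7ip2* at 3.25, and *Grin2a* at 14.1.

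Over the 8 clusters, the genes whose level followed *Grin2a* most closely among 10078 with at least 1000 UMIs were *Mxra8* with a Pearson r of 0.988, *Bhlhe40* with 0.979, *Cd164l2* with 0.972, *Dnajc2* with 0.970 and *Apln* with 0.970. For *Grin1* they were *Nsg1* with 0.976, *Gm1673* with 0.952, *Tfdp1* with 0.947, *Samd12* with 0.946 and *Macroh2a2* with 0.946. A high r does not give the size of a change. Over the clusters *Grin2a* ran from 0 to 145 CPM. *Mxra8* ran from 0.925 to 53.3 CPM, *Cd164l2* from 0 to 38.9 and *Apln* from 2.69 to 254. *Bhlhe40* ran only from 6.01 to 18.6 CPM and *Dnajc2* only from 111 to 160. The Spearman rank correlation of *Apln* with *Grin2a* was 0.643. The lists of 5 share no gene, but 2 lists of 5 out of 10078 genes would seldom overlap, so this says little. The points are 8 clusters of the same library, with median depths from 10005.5 to 30276 UMIs. For *Grin2a* 1 cluster sets most of the spread, so these values are descriptions.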

How the data were processed

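The nuclei were profiled as 1 library with 10x 3′ v3.1 chemistry. The authors made the deposited counts, raw UMIs of each gene in each barcode, with Cell Ranger 8.0.1 on mm39, per the labels, without normalization. Nuclei with 2000 to 8000 detected genes were kept here, with 141138093 UMIs in all. The subunits and gene lists were chosen with earlier results of these data known. CPM came from UMIs summed over nuclei, with 95% exact Poisson intervals. Ratios had exact conditional binomial intervals and shares Clopper-Pearson intervals, after thinning to 5000 UMIs with seed 1. The limit of a count of 0 is 3 counts. From each list, genes with at least 100 UMIs at 2 times or more or 0.5 times or less were named, otherwise the 2 with the highest CPM, apart from *Dlg4*, *Camk2a*, *Srr* and the cell type markers, which were chosen after their values were seen. The 5 most alike genes were taken by Pearson r of log2 CPM with 1 added. Clusters came from Seurat 5.3.0 in R 4.3.3 with a scale factor of 1000, 3000 variable genes, 20 principal components, 200 neighbors and a resolution of 1.0. Scrublet ran in scanpy 1.11.5. Gene positions are GENCODE vM39 on GRCm39, which matched 33185 of 33696 genes. The ratio script was tested on simulated data. Alternatives were other cutoffs on genes, UMIs, mitochondrial share and Scrublet score, other thinning, and other clusterings. Splits by cluster 1 and by *Xist* were chosen after seeing the data.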

Additional observations from a re-analysis of the deposited data

Results flagged for a closer look

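The barcodes outside the cutoffs on detected genes entered none of the main comparisons, only the alternative setting over all barcodes. They held subunit transcripts above the 3 UMIs that a count of 0 allows. In the 918 barcodes with fewer than 2000 genes, *Grin3a* was at 110 CPM (193 UMIs), *Grin2a* at 30.2 CPM (53 UMIs), *Grin2b* at 8.54 CPM (15 UMIs) and *Grin1* at 3.98 CPM (7 UMIs). In the 212 barcodes with more than 8000 genes, *Grin3a* was at 90.5 CPM (1039 UMIs), *Grin2a* at 19.0 CPM (218 UMIs), *Grin2b* at 7.84 CPM (90 UMIs), *Grin1* at 2.53 CPM (29 UMIs) and *Grin2d* at 1.31 CPM (15 UMIs).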

How the results depend on the processing

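The *Grin1* ratio between nuclei with 0 *Pdgfra* UMIs and the others stayed from 0.776 to 1.30 over all settings. It was 1.30 without cluster 1, a setting chosen after seeing the data. With *Pdgfra* detection itself read after thinning it was 0.776, and its interval (0.633 to 0.947) then left out 1. The *Grin2a* ratio stayed above 1 throughout, at 18.3 with 3000 to 7000 genes, 17.2 with at most 5% mitochondrial UMIs, 28.6 without the 8% highest Scrublet scores, 12.7 over all barcodes, 12.3 with *Pdgfra* read after thinning and 2.40 without cluster 1. The cause of these shifts was not tested. The *Grin1* ratio by *Grin2a* stayed from 0.410 to 1.53, and every interval held 1. It was 0.410 (0.00952 to 2.82) with at most 5% mitochondrial UMIs, which left 1954 nuclei, 1 *Grin1* UMI in 79 nuclei with *Grin2a* and 11 in 356 without, and 0.506 over all barcodes and 0.427 after thinning to 3000 UMIs. The *Grin2a* ratio of its highest cluster was 75.9 when nuclei with over 5% mitochondrial UMIs were removed before clustering. Depth leaves wide intervals for *Grin1*. *Grin2c* and *Grin3b* were too sparse to compare, and 1 library gives no replicate error. No paired analysis was possible because only 1 library was analysed and no groups share replicate numbers in it.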
